A study of Homo sapiens with 4 samples.

Results

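Cholesterol is made in animal cells from acetyl-CoA, and the genes for that route, together with the genes that sense sterols and move them, were followed here in HepG2, a human liver cancer cell line. The 30 genes were chosen by name from a list of the enzymes of the pathway and of the factors around the transcription factor SREBP2, out of 58302 genes in the files, and 29 of them had an FPKM of at least 1 in every library. The cells were wild type and had received 1 mM melatonin, a hormone of the pineal gland, or the solvent DMSO as the control. RNA was sequenced from 4 libraries, a DMSO and a melatonin library after 24 h and another of each after 48 h. Each condition had 1 library, so that a difference between conditions had no replicate check and no p-value is given. All 4 libraries came from 1 cell line that was otherwise unmodified.

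The pathway runs in stages. Mevalonate steps turn acetyl-CoA into the isoprenoid farnesyl diphosphate, which is joined in pairs to squalene, and squalene is then closed to lanosterol and trimmed step by step to cholesterol. SREBP2, the product of SREBF2, is an endoplasmic reticulum membrane protein that SCAP escorts to the Golgi when sterols are low, where it is cut to release an active factor. INSIG proteins hold SCAP back when sterols are high. SREBP1, from SREBF1, works in the same way and is best known for genes of fatty acid synthesis. The liver is a main site of cholesterol synthesis in the body.

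The promoters of 6 genes are shown. SREBF2 and SREBF1 are the paired factors, and MSMO1, TM7SF2 and MVD were the synthesis genes with the largest melatonin folds at 48 h. NPC1L1 is a sterol transporter that was also higher with melatonin at both times. Each promoter is the 250 bases before the RefSeq transcript start in GRCh38.p14, written 5′ to 3′ on the strand of the gene. Capitals mark CCAAT or its complement ATTGG, the letters known as the NF-Y box, and in SREBF2 also the match to TCACNCCAC, a form of the sterol regulatory element.
SREBF2 (chr22:41832855-41833104, plus strand): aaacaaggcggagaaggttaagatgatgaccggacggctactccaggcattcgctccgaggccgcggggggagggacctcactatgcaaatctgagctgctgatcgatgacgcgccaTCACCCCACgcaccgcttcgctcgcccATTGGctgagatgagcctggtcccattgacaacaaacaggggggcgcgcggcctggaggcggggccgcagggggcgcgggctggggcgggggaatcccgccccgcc
MSMO1 (chr4:165327419-165327668, plus strand): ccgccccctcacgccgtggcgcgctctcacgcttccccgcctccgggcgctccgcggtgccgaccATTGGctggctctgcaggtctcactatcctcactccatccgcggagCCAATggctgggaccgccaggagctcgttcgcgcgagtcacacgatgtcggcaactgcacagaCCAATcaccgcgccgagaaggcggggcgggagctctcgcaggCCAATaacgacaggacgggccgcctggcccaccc
TM7SF2 (chr11:65111622-65111871, plus strand): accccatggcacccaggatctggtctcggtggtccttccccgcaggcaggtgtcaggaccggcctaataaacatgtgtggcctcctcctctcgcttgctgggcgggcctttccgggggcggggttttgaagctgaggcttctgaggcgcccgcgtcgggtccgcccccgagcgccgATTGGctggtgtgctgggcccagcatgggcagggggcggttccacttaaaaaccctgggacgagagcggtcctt
MVD (chr16:88663092-88663341, minus strand): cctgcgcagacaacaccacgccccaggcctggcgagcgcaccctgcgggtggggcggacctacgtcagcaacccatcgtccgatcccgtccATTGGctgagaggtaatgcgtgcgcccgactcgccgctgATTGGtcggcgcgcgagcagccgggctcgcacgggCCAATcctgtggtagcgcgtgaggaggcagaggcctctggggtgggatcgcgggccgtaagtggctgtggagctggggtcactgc
NPC1L1 (chr7:44541331-44541580, minus strand): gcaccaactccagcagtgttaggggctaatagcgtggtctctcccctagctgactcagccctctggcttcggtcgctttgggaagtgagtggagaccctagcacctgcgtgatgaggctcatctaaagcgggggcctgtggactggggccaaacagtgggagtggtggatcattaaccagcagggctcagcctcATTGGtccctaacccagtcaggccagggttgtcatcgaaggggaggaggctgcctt
SREBF1 (chr17:17836987-17837236, minus strand): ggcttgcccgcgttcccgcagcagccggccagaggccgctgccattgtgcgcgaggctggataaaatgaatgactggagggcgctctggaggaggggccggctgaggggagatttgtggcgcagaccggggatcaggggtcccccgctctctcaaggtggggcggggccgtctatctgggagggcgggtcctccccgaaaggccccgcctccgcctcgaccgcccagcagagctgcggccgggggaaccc
SREBF2 held the match to TCACNCCAC 133 bases before its start and 1 CCAAT 106 bases before it. MSMO1 held 4 copies of CCAAT, MVD 3, TM7SF2 and NPC1L1 1 each, and the SREBF1 window 0. Each of these genes had 1 window, and other starts of the gene were not searched. Both strands were searched. RefSeq promoters were matched for 26 of the 30 genes, leaving SQLE, FDFT1, SOAT2 and ACAT2 unmatched. For 29 of the 34 windows of these genes, the bases after the start were found in a transcript of the gene. CCAAT was in a window of 20 of the 26 genes, or 76.9%, against 37.0% of all 27305 genes with a window of the same length. The members are all protein-coding and nearly all expressed here, and no share was taken over protein-coding or expressed genes alone. CACNCCAC, which lies within TCACNCCAC, was found for IDI1, INSIG1, SC5D and SREBF2, or 15.4% of the 26 genes against 5.89% of all. The longer TCACNCCAC was found in SREBF2 alone, or 3.85% against 1.09%. A match is a description of letters in the window and not a measured binding site.

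The files gave FPKM, that is reads per kilobase of gene, scaled to library size, and every value above 0 came back as whole reads. Between 21616676 and 23086025 reads per library lay on genes. The divisor behind the FPKM was smaller, at 0.849 and 0.888 of those reads in DMSO and melatonin at 24 h and 0.9499 and 0.973 at 48 h. What it counts was not given in the sources used here. Every fold of FPKM rests on it. The alternative scalings given below, the plain sum of reads among them, take its differences between libraries out. The share of those reads on mitochondrial genes was 19.96% and 16.6% in the DMSO and melatonin libraries at 24 h and 9.77% and 11.9% at 48 h. All 7 hepatocyte markers checked were at 1 FPKM or more in every library, with a summed level of 5732 to 6908 FPKM, although single markers differed with melatonin at 48 h in both directions (TTR 5.05-fold, AFP 0.411-fold and TF 0.525-fold). No fibroblast marker of 5 and no endothelial marker of 3 reached 1 FPKM in every library (summed levels 0.804 to 4.33 and 0.543 to 1.18 FPKM), PDGFRB stood at 1.81, 0.774, 3.58 and 4.33 FPKM in DMSO and melatonin at 24 h and DMSO and melatonin at 48 h, COL3A1 and DCN were at 0 throughout, and of 4 leukocyte markers only LYZ was above 1 FPKM, at 729 to 1069 FPKM, while CD3E was at 0. Intervals below are 95% exact intervals of the read counts and cover counting error only.

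Melatonin was compared with DMSO at each time to see how the genes of the pathway differed with treatment. With melatonin, most enzymes of cholesterol synthesis were higher than with DMSO, and the differences were larger at 48 h than at 24 h. The summed FPKM of the 20 enzymes was 426.5 in the DMSO library and 518.1 in the melatonin library at 24 h, 1.22-fold. At 48 h the sums were 209.5 and 310.3 in the same order, 1.48-fold. On the log2(FPKM + 1) scale, which understates the folds of low genes, the median difference of the 20 enzymes was 0.21 at 24 h and 0.56 at 48 h. Over all genes tested it was 0.02 and -0.02. In bulk RNA, fewer cells that express a gene and less RNA of it per cell cannot be told apart.

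At 24 h, 15 of the 20 enzymes were higher with melatonin, or 18 with reads divided by their plain sum and 19 with values rescaled to TPM, that is with the FPKM of each library divided to a common total. In FPKM, 53.5% of all genes were higher at that time. Those scalings also raised the median of all genes, from 0.02 (log2) to 0.08 with the plain sum and 0.17 with TPM. The median of the enzymes lay above it by 0.19 in FPKM, 0.20 with the plain sum and 0.22 with TPM. At 48 h, 18 of 20 were higher in FPKM, against 47.5% of all genes. With the plain sum and TPM 19 and 17 were, where the median of all genes was 0.01 and -0.06. By intervals of the reads, 12 enzymes lay above a fold of 1 and 1 lay below it at 24 h, where 29.7% and 22.9% of all genes did. At 48 h, 17 lay above and 0 below, where 30.2% and 34.1% of all genes did. Whether an interval holds 1 depends on the reads of a gene, and these shares were not matched for reads. Among all 29 genes measured, 3 were at least 1.5-fold higher with melatonin at 24 h, where 4.02% of all genes and 1.92% of protein-coding genes were (the members are all protein-coding), and 1 was as much lower, where 7.53% and 2.74% were. At 48 h, 9 were at least 1.5-fold higher, against 8.62% of all and 6.78% of protein-coding genes, and 2 were lower, against 10.0% and 6.36%. At 2-fold the count was 0 at 24 h, where 1.42% of all and 0.191% of protein-coding genes were higher and 2.93% and 0.439% lower. At 48 h it was 2 higher (2.39% of all and 1.03% of protein-coding genes) and 1 lower (3.32% and 1.36%). HMGCS1 at 1.51-fold, SC5D at 1.54-fold, CYP51A1 at 1.63-fold and MYLIP at 1.74-fold fell outside the 48 h count because of the pseudocount of 1, and a pseudocount of 0.1 took it from 9 to 13, while the share of all genes went from 8.62% to 13.3%.

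**Figure D1:**
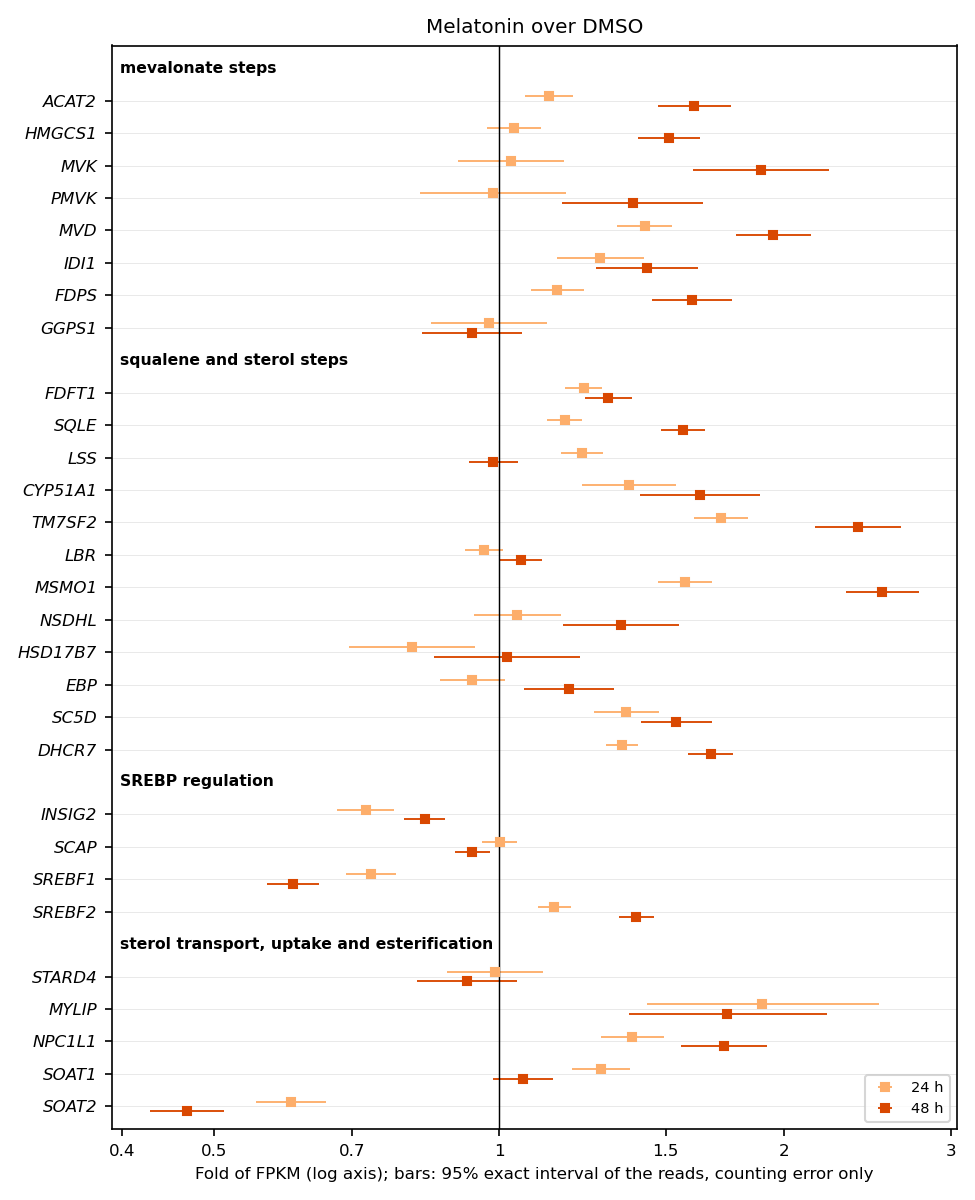
Fold of FPKM with melatonin over DMSO (x axis, log scale) for 29 genes in 4 groups by role, with INSIG1 left out as it had 0 or 1 read. Light squares are 24 h, dark squares are 48 h, and bars are 95% exact intervals of the reads. Most enzymes lie right of the line at 1, MSMO1 and TM7SF2 farthest at 48 h, while SREBF1, INSIG2 and SOAT2 lie left of it at both times.

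Among the mevalonate steps, 6 of 8 genes were higher with melatonin at 24 h and 7 of 8 at 48 h. At 24 h all 8 were higher with the plain sum of reads or TPM, which also raised the median of all genes. The first, ACAT2 (chr6:159760328-159779055, plus strand; coordinates here and below are the files', on hg38), encodes the thiolase that condenses acetyl-CoA. ACAT2 stood at 26.4, 29.9, 8.54 and 13.7 FPKM in DMSO and then melatonin at 24 h, followed by DMSO and then melatonin at 48 h, the order used for every gene below. Both 24 h libraries were above both 48 h libraries, and within each time melatonin was the higher, 1.13-fold (1.07 to 1.197) and 1.61-fold (1.47 to 1.76). ACAT2 shares 454 bases of exon with TCP1 on the opposite strand, whose folds were 0.9497 and 0.955. SOD2, also on the opposite strand, overlaps the ACAT2 locus and had 5883 to 8274 reads, with folds of 1.07 and 1.39. The sources used here do not say whether counting used strand, so reads in such overlaps cannot be assigned.

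MVK (chr12:109573255-109598117, plus strand) encodes mevalonate kinase and was the lowest of the 20 enzymes in both DMSO libraries, at 3.80, 3.91, 1.56 and 2.95 FPKM. The 24 h libraries were close together, with a fold of 1.03 (0.905 to 1.17), while at 48 h melatonin was 1.89-fold higher (1.604 to 2.23). The fold at 48 h was 1.84 times that at 24 h (1.496 to 2.26). MMAB, a cobalamin gene on the opposite strand that shares 225 bases of exon with MVK, had 463, 729, 220 and 465 reads and folds of 1.43 and 2.09.

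MVD (chr16:88651935-88663161, minus strand) encodes the decarboxylase that makes isopentenyl diphosphate. Its levels were 16.6, 23.6, 6.80 and 13.2 FPKM. Melatonin was higher at both times, 1.43-fold (1.33 to 1.52) at 24 h and 1.95-fold (1.78 to 2.14) at 48 h. FDPS (chr1:155308748-155320666, plus strand), the gene of farnesyl diphosphate synthase, had 24.0, 27.6, 8.18 and 13.1 FPKM. Its melatonin folds were 1.15 (1.08 to 1.23) and 1.599 (1.45 to 1.76), again larger at the later time. The antisense gene RUSC1-AS1 shares 693 bases of exon with FDPS and had 132, 163, 76 and 185 reads, with folds of 1.12 and 2.40.

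The other mevalonate genes had smaller folds at 48 h. HMGCS1, which makes HMG-CoA, had folds of 1.04 (0.971 to 1.11) and 1.51 (1.40 to 1.63). IDI1, the isopentenyl diphosphate isomerase, had folds of 1.28 and 1.43. For PMVK, phosphomevalonate kinase, the 24 h interval held 1 (0.826 to 1.18) and the 48 h fold was 1.38 (1.17 to 1.64). GGPS1, which diverts farnesyl diphosphate to geranylgeranyl diphosphate for prenylation of proteins, had folds of 0.975 and 0.936 with intervals that held 1 at both times.

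Among the squalene and sterol steps, MSMO1 and TM7SF2 were, on the log2(FPKM + 1) scale, the only members at least 1.5-fold higher both at 24 h and at 48 h, where 1.39% of all genes were. MYLIP also passed 1.5-fold at both times in plain FPKM. With TPM others, MVD and NPC1L1 among them, joined these genes. MSMO1 (chr4:165327623-165343160, plus strand) encodes the methylsterol monooxygenase, which removes methyl groups from lanosterol products. It had 27.4, 43.0, 10.9 and 27.8 FPKM. Melatonin at 48 h was close to DMSO at 24 h and far above DMSO at 48 h, with a fold of 2.54 (2.32 to 2.78) after 1.57 (1.47 to 1.68) at 24 h. TM7SF2 (chr11:65111845-65116384, plus strand), a sterol reductase of the endoplasmic reticulum, had 22.4, 38.4, 6.77 and 16.2 FPKM. Its melatonin folds were 1.72 (1.61 to 1.83) and 2.39 (2.16 to 2.66). VPS51, which shares 18 bases of exon with it on the same strand, had folds of 0.964 and 1.00.

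LBR (chr1:225401502-225428925, minus strand), the lamin B receptor of the nuclear envelope, catalyses the same reduction as TM7SF2. LBR had 36.6, 35.3, 24.9 and 26.3 FPKM, with folds of 0.963 (0.920 to 1.01) and 1.06 (1.00 to 1.11), and its 24 h direction turned with TPM or the plain sum of reads. Within a library the ratio of TM7SF2 to LBR does not depend on scaling. At 24 h the DMSO library gave 0.611 (0.574 to 0.650) and the melatonin library 1.09 (1.04 to 1.15). The corresponding ratios at 48 h were 0.272 (0.247 to 0.299) and 0.616 (0.576 to 0.658), so that TM7SF2 exceeded LBR in the melatonin 24 h library alone.

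DHCR7 (chr11:71428193-71452868, minus strand), whose enzyme carries out a last reduction to cholesterol, was the highest of the members at 24 h. It had 53.4, 72.0, 22.5 and 37.6 FPKM. Both melatonin libraries were above the DMSO library of the same time, 1.35-fold (1.30 to 1.40) and 1.67-fold (1.58 to 1.77). SQLE (chr8:124998497-125022283, plus strand) encodes squalene monooxygenase, a rate-limiting enzyme of the sterol branch, and had 49.0, 57.5, 23.2 and 36.3 FPKM. Its folds were 1.17 (1.13 to 1.22) and 1.57 (1.48 to 1.65).

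Of the 7 further sterol enzymes, FDFT1 (squalene synthase), CYP51A1 (lanosterol demethylase) and SC5D (a sterol desaturase) had folds of 1.23 to 1.37 at 24 h and 1.30 to 1.63 at 48 h, all with intervals above 1. NSDHL and EBP were above 1 by interval at 48 h alone, with folds of 1.35 and 1.19. EBP lay at 0.937 at 24 h, a direction that turned with TPM. LSS, lanosterol synthase, and GGPS1 were the enzymes whose fold of FPKM was not larger at 48 h, and with TPM other enzymes joined them. LSS had 1.23 (1.16 to 1.29) at 24 h and 0.987 (0.930 to 1.05) at 48 h. The 48 h direction of LSS turned with the plain sum of reads and without mitochondrial genes. HSD17B7, a ketosteroid reductase, was at 0.810 (0.695 to 0.944) at 24 h and 1.02 (0.853 to 1.22) at 48 h, and its pseudogene HSD17B7P2, which could share reads with it, had 104, 90, 60 and 99 reads beside its own 361, 323, 249 and 257.

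The regulators split. SREBF2 (chr22:41833079-41907308, plus strand), whose promoter held the sterol regulatory element letters above, had 32.0, 36.6, 22.1 and 30.8 FPKM. Melatonin was higher at both times, 1.14-fold (1.10 to 1.19) and 1.40-fold (1.34 to 1.46). SREBF1 (chr17:17810399-17837002, minus strand) had 15.8, 11.6, 14.3 and 8.68 FPKM and was lower with melatonin, at folds of 0.733 (0.689 to 0.779) and 0.606 (0.568 to 0.646). SREBF1 and RAI1 share 556 bases of exon on opposite strands, and RAI1 had folds of 0.901 and 0.855. The ratio of SREBF1 to SREBF2 was 0.495 and 0.649 with DMSO at 24 h and 48 h, and 0.317 and 0.282 with melatonin.

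SCAP (chr3:47413694-47477126, minus strand) had 34.4, 34.4, 32.2 and 30.1 FPKM. The 4 libraries lay close together, with folds of 1.00 (0.959 to 1.05) and 0.937 (0.898 to 0.978), and its 24 h direction turned with the median of ratios and without mitochondrial genes. INSIG2 (chr2:118088452-118110997, plus strand) had 25.5, 18.5, 39.1 and 32.7 FPKM, and both 48 h libraries were above both 24 h libraries. Melatonin was lower at both times, at 0.723 (0.675 to 0.775) and 0.834 (0.794 to 0.877). INSIG1 (chr7:155297776-155310235, plus strand), a well known SREBP target, had 0, 1, 0 and 0 reads, for which the upper interval bound in the DMSO 24 h library was 0.0551 FPKM. No fold can be given. Among genes with at least 1000 reads over the 4 libraries, the nearest were PAXIP1-AS1, with 1261 reads and 292073 bases before it, and RBM33, with 8780 reads and 334216 bases after it. For 14 housekeeping genes checked, the lowest count in a library was 405 reads, so that the files' zeros did not extend to such genes, and why INSIG1 was at 0 was not tested.

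**Figure D2:**
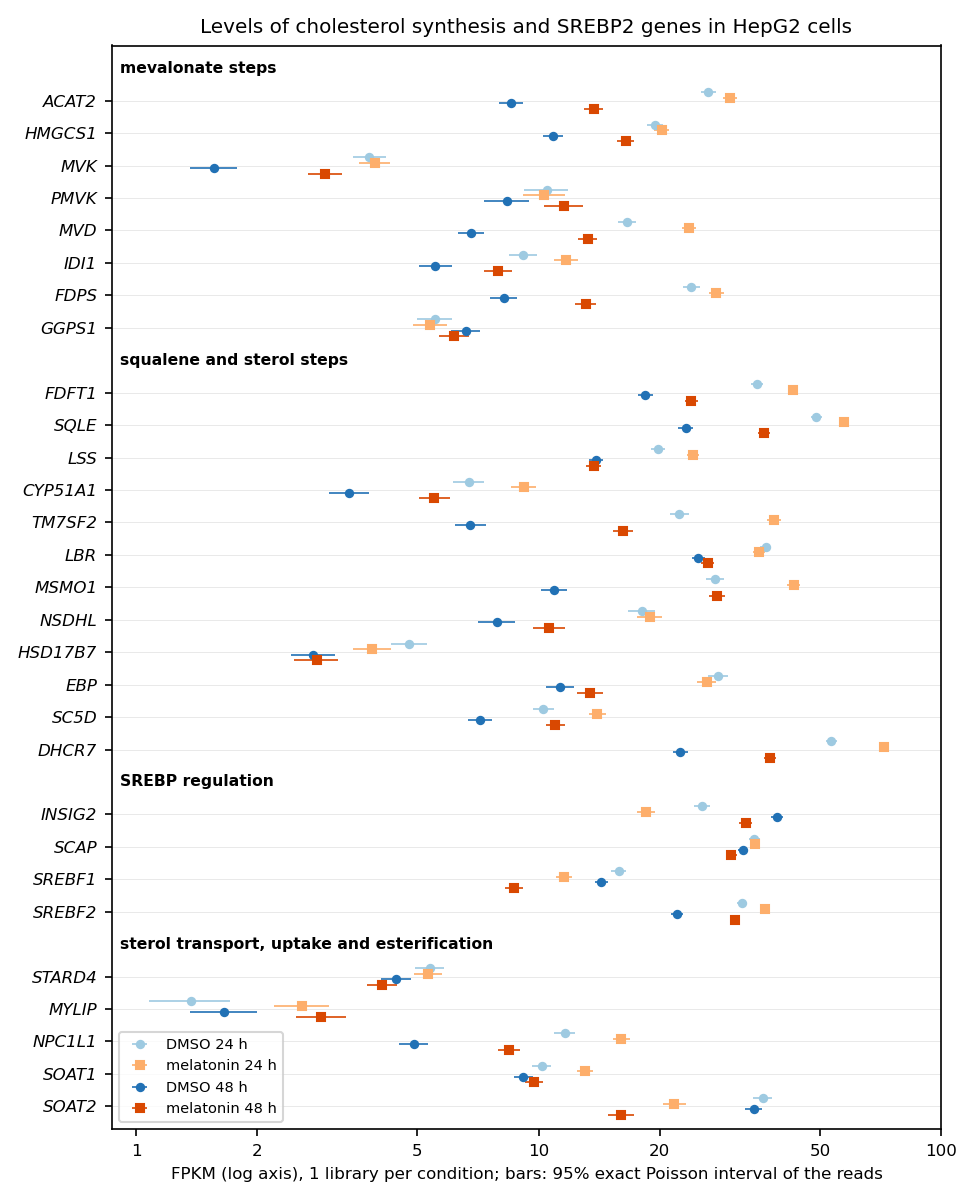
FPKM (x axis, log scale) of 29 genes in the 4 libraries, in groups by role and without INSIG1. Circles are DMSO and squares melatonin, light colours 24 h and dark colours 48 h, and bars are 95% exact Poisson intervals. DMSO 48 h is the lowest of the 4 in 18 of 20 enzymes, and melatonin 24 h the highest in 15 of 20.

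Sterol handling genes differed with melatonin in both directions. NPC1L1 (chr7:44512535-44541315, minus strand), a transporter that takes up free sterol, had 11.6, 16.1, 4.90 and 8.46 FPKM. Its folds were 1.38 (1.28 to 1.49) and 1.73 (1.56 to 1.92), near those of the enzymes. MYLIP (chr6:16129125-16148248, plus strand) encodes a ubiquitin ligase of lipoprotein receptors and had 1.36, 2.58, 1.65 and 2.88 FPKM, from 76 to 194 reads. Both melatonin libraries were above both DMSO libraries, at 1.89-fold (1.43 to 2.52) and 1.74-fold (1.37 to 2.22), the widest intervals in the list. STARD4, which carries sterols between membranes, had folds of 0.991 and 0.925 with intervals that held 1.

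SOAT1 and SOAT2 encode the enzymes that esterify cholesterol for storage and secretion. SOAT2 (chr12:53103518-53124538, plus strand) had 36.1, 21.7, 34.2 and 16.0 FPKM, and both melatonin libraries were below both DMSO libraries. Its folds were 0.603 (0.553 to 0.656) and 0.468 (0.428 to 0.512), and it was the one member at least 1.5-fold lower at both times, where 2.79% of all genes were; at 24 h it fell short of 1.5-fold with TPM. SOAT1 (chr1:179293714-179358680, plus strand) had 10.2, 13.0, 9.17 and 9.73 FPKM, with folds of 1.28 (1.19 to 1.38) and 1.06 (0.986 to 1.14). The ratio of SOAT1 to SOAT2 was 0.282 and 0.268 with DMSO and 0.600 and 0.607 with melatonin at 24 h and 48 h, so it was set apart by treatment and not by time.

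**Figure D3:**
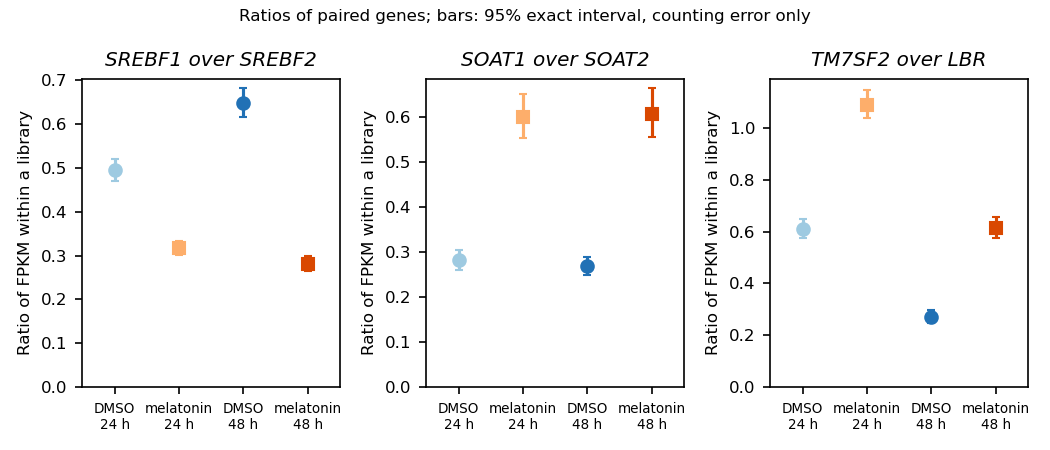
Ratio of FPKM within a library (y axes, from 0) for SREBF1 over SREBF2, SOAT1 over SOAT2 and TM7SF2 over LBR in the 4 libraries, with 95% exact intervals. SREBF1 over SREBF2 is lower and the other ratios are higher with melatonin than with DMSO at the same time.

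Across both times, 18 of the 29 members were higher with melatonin at both, against 34.5% of 12775 genes, and 5 were lower at both, against 32.0%. The fold was larger at 48 h than at 24 h in 21 of 29 members, where it was in 47.1% of all genes, and in 18 of the 20 enzymes. With TPM it was no longer larger at 48 h for IDI1, FDFT1, SC5D, LBR and INSIG2. The median of the 20 enzymes was then 0.39 (log2) at 24 h and 0.54 at 48 h. In FPKM, the interval of the ratio of the folds at 48 h and 24 h (a normal approximation from the reads) lay above 1 in 18 members, against 21.7% of all genes. It lay below 1 in 5 members, against 27.6%, which were LSS, SCAP, SREBF1, SOAT1 and SOAT2. These shares, too, were not matched for reads. SREBF1 and SOAT2, already below 1 at 24 h, were farther below it at 48 h.

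The later time was then compared with the earlier one within each treatment. These comparisons share their libraries with those of melatonin, DMSO at 48 h among them, so the values are set side by side and not combined. With DMSO, 19 of 20 enzymes were lower at 48 h than at 24 h (18 with TPM, PMVK turning), with a median fold of 0.489, where 49.7% of all genes were lower. With melatonin 18 of 20 were, with a median fold of 0.615, where 54.9% of all genes were. The extremes with DMSO were TM7SF2 at 0.303 (0.273 to 0.335), ACAT2 at 0.323 (0.297 to 0.351) and FDPS at 0.341 (0.311 to 0.374). In the melatonin libraries the same genes stood at 0.422, 0.460 and 0.473. GGPS1 was the 1 enzyme higher in FPKM at 48 h with DMSO, at 1.19 (1.05 to 1.36).

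Of the 29 members, 16 were at least 1.5-fold lower at 48 h with DMSO, against 12.6% of all and 10.7% of protein-coding genes, and 1, INSIG2, was higher, against 11.2% and 7.68%. With melatonin 13 were lower, against 6.05% and 4.28%, and INSIG2 alone was higher, against 6.76% and 2.48%. At 2-fold, 10 were lower with DMSO (4.24% of all and 2.78% of protein-coding genes) and 3 with melatonin (1.71% and 0.429%). With TPM the counts with DMSO became 10 lower and 3 higher, where 7.41% and 40.6% of all genes were, and those with melatonin 6 and 1, where 5.51% and 20.9% were. The median of all genes itself moved to 0.46 (log2) with DMSO and 0.23 with melatonin under TPM, against 0.00 and -0.04 in the FPKM. The same rescaling with mitochondrial genes left out of the total gave -0.02 and -0.01. Relative to the median of all genes, the median of the members was between -0.63 and -0.78 with DMSO and between -0.37 and -0.47 with melatonin over all settings run. The share of mitochondrial reads also differed with time, and without mitochondrial genes the median of the 20 enzymes was -0.91 with DMSO and -0.62 with melatonin, beside -0.90 and -0.65.

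**Figure D4:**
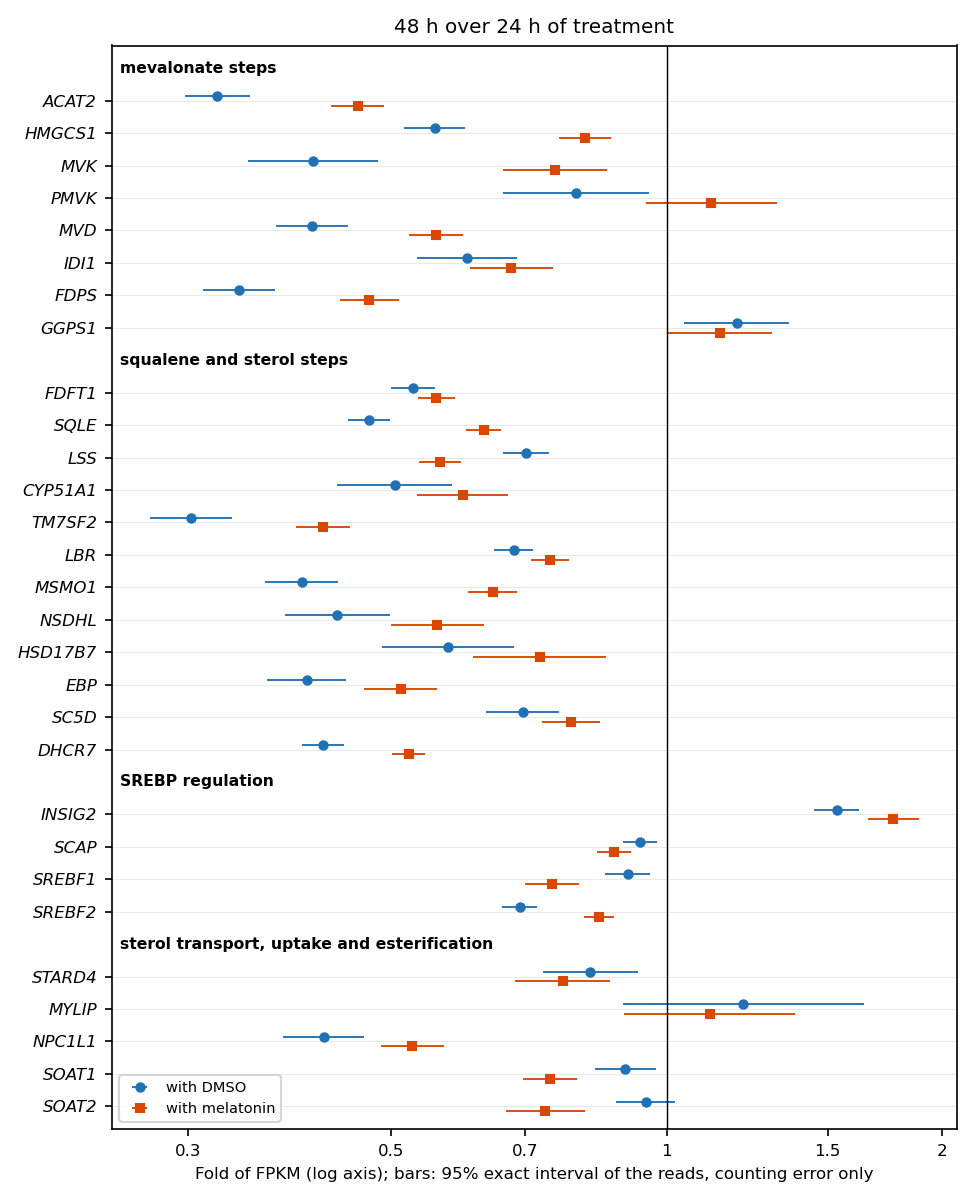
Fold of FPKM at 48 h over 24 h (x axis, log scale) for 29 genes in 4 groups by role, without INSIG1. Circles are DMSO, squares melatonin, and bars are 95% exact intervals of the reads. Nearly all enzymes lie left of the line at 1, with the melatonin square to the right of the DMSO circle for all but GGPS1 and LSS, while INSIG2 lies right of it.

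In the regulators, SREBF2 was at 0.691 (0.661 to 0.722) with DMSO and 0.843 (0.812 to 0.876) with melatonin, and the latter direction turned with TPM. SREBF1 was at 0.906 and 0.750, the DMSO direction turning with TPM and the plain sum of reads. SOAT2 was at 0.949 (0.881 to 1.02) with DMSO and 0.737 (0.668 to 0.814) with melatonin, and its DMSO direction turned with the same scalings. INSIG2 was at 1.53 (1.45 to 1.62) and 1.77 (1.66 to 1.89).

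Looking at the 4 libraries together, DMSO at 48 h was the lowest in 18 of 20 enzymes and in 21 of 29 members, against 30.8% of 14612 genes. Melatonin at 24 h was the highest in 15 of 20 enzymes and 19 of 29 members, against 26.4%. Melatonin at 48 h lay between DMSO at 48 h and DMSO at 24 h in 15 of 20 enzymes and 18 of 29 members, against 19.1%. With TPM it did in 8 of 20 enzymes, and in 16 of 20 when the same rescaling left out mitochondrial genes. No share of all genes was taken under these scalings. The whole order from DMSO 48 h through melatonin 48 h and DMSO 24 h to melatonin 24 h held for 12 enzymes and 15 members, against 9.96%. The order was not particular to these genes. Among 13 genes of fatty acid synthesis, described below, DMSO at 48 h was the lowest in 10 and melatonin at 24 h the highest in 8. Melatonin at 48 h lay between the DMSO libraries in 7 of them, and the whole order held for 5.

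Other genes of sterol metabolism and of neighbouring routes were read from lists of known genes. Of 17 measured genes of other sterol regulation, 1 was at least 1.5-fold higher with melatonin at 24 h and 3 at 48 h, none was lower, and the median difference was 0.12 and 0.08. Shares over all genes were 4.02% higher and 7.53% lower at 24 h, and 8.62% and 10.0% at 48 h, which the counts for these lists of 10 to 17 genes are to be read against. ERLIN2, an endoplasmic reticulum protein of the degradation of sterol-sensing proteins, was 2-fold higher at 48 h, with 10.0, 14.2, 4.99 and 12.0 FPKM. Of 13 measured genes of fatty acid synthesis, 0 reached 1.5-fold at 24 h, while at 48 h 1 was higher (PNPLA3, a lipid droplet enzyme, 7.79, 9.17, 2.14 and 5.17 FPKM) and 1 lower (GPAM, which starts glycerolipid synthesis, 14.8, 10.0, 16.0 and 9.69 FPKM). Their median differences were 0.21 and 0.41, beside the lower SREBF1. In plain FPKM, FADS2 at 1.64-fold and ACACB at 1.55-fold also passed at 48 h. With DMSO 5 of the 13 were at least 1.5-fold lower at 48 h than at 24 h, against 12.6% of all genes, and with melatonin 6 were, against 6.05%. Of 10 genes that use isoprenoids for other products, such as dolichol, ubiquinone and prenylated proteins, 0 reached 1.5-fold with melatonin at either time on the log2(FPKM + 1) scale, with medians of 0.00 and -0.08. FNTA, a subunit of protein farnesyltransferase, was at 0.652-fold at 48 h in plain FPKM.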

How the data were processed

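The 4 libraries were grouped by the treatment and time in the labels. The authors deposited 1 FPKM table per library, with gene lengths, made by counting reads per gene on hg38. The submitters' processing notes name Bowtie2 2.0.6, TopHat2 2.0.9, Cufflinks 2.1.1 and Cuffdiff 2.1.1, the study's methods name MapSplice and Cufflinks, and the annotation release was not given in the sources used here. Reads were recovered from the deposited FPKM values and the gene length; 100% of values above 0 were whole within 0.001 reads. Coverage of 3 reads in a gene of 1 kb was worth 0.135 to 0.163 FPKM. A gene entered a comparison if 1 of its libraries reached 1 FPKM, folds on the log2(FPKM + 1) scale were called at 1.5-fold, and plain folds have 95% exact binomial intervals. With 1 library per condition, no test was run. Every member was accounted for. Values in every library were given for members past 1.5-fold with melatonin at either time on the log2(FPKM + 1) scale. They were also given for members past 1.2-fold in opposite directions (0 found), for the regulators and for the genes of the ratios. Of other lists, genes past 2-fold had them. PNPLA3, GPAM and the markers printed were named after their values were seen. The members and lists were chosen with earlier results of these data known. Python 3.11.15, numpy 2.4.6, pandas 2.3.3, scipy 1.17.1 and matplotlib 3.10.9 were used, and the scripts were tested on simulated data. Pseudocount, minimum FPKM, scaling (TPM, median of ratios, plain sum of reads, no mitochondrial genes) and protein-coding genes alone were varied. The scaling without mitochondrial genes brought each library to a common total as TPM does, with those genes left out, so the 2 differ in the mitochondrial share.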

Additional observations from a re-analysis of the deposited data

How the results depend on the processing

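Over all settings, the counts and medians moved little in 51 cases and more in 13, a count within 1.5-fold of the main one being taken as little moved. Of the 51, 4 were counts with protein-coding genes alone, which could not move since every member is protein-coding. The log2 folds of single genes stayed within their counting interval in 263 cases and moved beyond it in 27, of which TPM gave 23, leaving out a change of minimum FPKM, which cannot move them. Ratios within a library do not depend on scaling. No called value changed sign. The median of the members at 24 h was 0.36 (log2) with TPM, beside 0.19, and 8 members, beside 4, then passed 1.5-fold, all of them higher, while the share of all genes higher by that much went from 4.02% to 12.0%. At 2-fold, 0, 3, 10 and 3 members passed at 24 h, at 48 h, over time with DMSO and over time with melatonin, beside 4, 11, 17 and 14 at 1.5-fold. The median over time with DMSO was -0.77 with a pseudocount of 0.1, -0.49 by plain sums of reads and -0.26 by TPM, beside -0.63. Over time with melatonin it was -0.56 with a minimum FPKM of 5, -0.29 by plain sums of reads and -0.17 by TPM, beside -0.42, and 7 members passed with TPM. Under TPM the median of all genes was 0.17 at 24 h and -0.06 at 48 h, and with mitochondrial genes left out it was 0.02 at both times. No paired analysis was possible because each condition had 1 library and the labels give no replicate numbers to block on. A model with treatment and time as terms would leave 1 residual degree of freedom and was not run. Depth limits MYLIP, PMVK, HSD17B7 and MVK most, and no level of INSIG1 could be compared.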

Other observations

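Some genes outside the lists of members were picked after their values were seen and are given as values alone. MMAB, the neighbour of MVK that handles cobalamin, stood at 4.01, 5.71, 1.59 and 3.33 FPKM in DMSO and melatonin at 24 h and in DMSO and melatonin at 48 h. TMEM97, a sterol-regulated membrane protein, stood at 35.9, 44.3, 12.9 and 25.6 FPKM in the same order, the order of libraries seen in 12 of the 20 enzymes. FADS2, a fatty acid desaturase, stood at 9.57, 8.12, 1.96 and 3.21 FPKM, with a fold of 0.848 at 24 h and 1.64 at 48 h. SCARB1, a receptor for high density lipoprotein, was lower with melatonin at both times, at 43.1, 31.2, 39.2 and 28.8 FPKM.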
